A study of Mus musculus with 6 samples.

Results

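Rest (gene 19712, chromosome 5) and 7 genes of its corepressor machinery, Rcor1, Rcor2, Rcor3, Sin3a, Hdac1, Hdac2 and Phf21a, were examined in whole testes of Alkbh1 knockout mice (KO, genotype Alkbh1-/-) and wild-type mice (WT). Every probe set whose annotated gene symbol was exactly one of these names was taken, high or low, which gave 25 probe sets of the 45037 on the array that were not controls, 4 of them for Rest and 21 for the corepressors. A probe set combines several short probes against 1 stretch of a transcript, and a gene can be read by more than 1 of them. The values are normalized log2 expression values, and a difference of 1 is a doubling. The genes were chosen because differences between KO and WT at Rest were already known from these arrays, and the KO minus WT values of Rest are therefore given as a description, without a test.

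Each group had 3 mice of 12 weeks, with 1 Affymetrix array per mouse, on a background that the source label gives as C57/BL6 and the genotype field spells C53/BL6. The labels do not say which part of Alkbh1, which encodes a dioxygenase of the AlkB type, was removed, nor on which strain it was first made. As a check of the labels, Alkbh1 (probe set 1434660_at) had a mean of 8.60 ± 0.15 in WT against 5.42 ± 0.30 in KO (SD, n = 3 each), and it decreased by 3.18 ± 0.15 (SE, limma adjusted p = 0.000582). Its other probe set, 1438681_at, differed by −1.02 ± 0.12 without passing (limma adjusted p = 0.0697). Testis markers were strong, with means of 14.97 in WT and 14.99 in KO for the protamine gene Prm1 and 12.79 and 12.83 for the germ cell helicase gene Ddx4. Arrays correlated at 0.989 to 0.996 across probe sets, and WT replicates 1 and 2 stood farthest apart on the leading principal component (−24.36 and 21.03), with the others from −6.85 to 6.87. Of the 25 probe sets, 20 had WT replicates 1 and 2 as the lowest and highest WT value, in either order. The share over all probe sets was not counted, so the count is not read as a trait of these genes. Control probe sets for labelling averaged 6.33 in WT replicate 1 and 8.76 in WT replicate 2, against 7.13 to 7.58 in the other arrays. Whole testis is a mixture of cell types, so that fewer cells of a type and less RNA per cell cannot be told apart.

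REST, also called NRSF, is a zinc finger repressor that binds a long DNA element known as RE1 in and near many neuronal genes and keeps them silent outside the nervous system. Its N-terminal part recruits the SIN3 scaffold and its C-terminal part the CoREST proteins encoded by the Rcor genes. Both scaffolds carry the histone deacetylases HDAC1 and HDAC2, and the CoREST complex also holds the histone demethylase LSD1, encoded by Kdm1a, and PHF21A, which binds unmethylated histone tails.

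The 4 Rest probe sets all had higher means in KO, and they differed widely in how much. Probe set 1425564_at read 5.22, 4.71 and 5.13 in WT replicates 1 to 3 and 6.72, 6.69 and 6.75 in KO replicates 1 to 3. All 3 KO arrays stood more than 1 log2 above all 3 WT arrays, with a gap of 1.48 between the nearest values, and the KO arrays were nearly equal to each other. The mean of WT was 5.02 ± 0.27 and that of KO 6.72 ± 0.03 (SD, n = 3 each), a difference of 1.70 or 3.25-fold. In size it was number 9 among all 45037 probe sets, of which 33 differed by more than 1. Because its mean over the 6 arrays (5.87) lay under the level filter (lowest mean kept 6.02), it was not among the 27022 probe sets tested. How much of its signal in WT was background is unknown.

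Probe set 1428227_at, the brightest for Rest, read 8.35, 7.94 and 8.08 in WT and 8.70, 8.58 and 8.57 in KO. The groups did not overlap, but the gap between KO replicate 3 and WT replicate 1 was 0.22. The means were 8.12 ± 0.20 and 8.61 ± 0.07, a difference of 0.49 ± 0.11 (SE) or 1.41-fold. It kept a difference between 0.40 and 0.60 whichever array was left out, while 1425564_at ranged from 1.55 to 1.80. Without WT replicates 1 and 2 together, which leaves 1 WT array, they stood at 0.53 and 1.59.

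The other pair of Rest probe sets moved less. Probe set 1425565_at read 7.68, 8.32 and 8.27 in WT and 8.15, 8.23 and 8.29 in KO, and the groups overlapped. WT replicate 1 was the low value, and the difference of 0.13 became −0.07 without that array. Leaving out WT replicate 2 or 3 gave 0.25 or 0.22. Probe set 1425566_at read 5.25, 4.84 and 5.19 in WT and 5.45, 5.33 and 5.25 in KO. Its difference was 0.25, and the nearest KO and WT values were 0.0021 apart, so that the groups were barely separated. Without WT replicate 2 the difference was 0.13. It too lay under the level filter.

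Probe sets 1425564_at, 1425565_at and 1425566_at are all annotated to 1 clone sequence (BI153474) and 1428227_at to another (AK011349). Within that clone the KO minus WT differences were 1.70, 0.13 and 0.25. Taken array by array, 1425564_at minus 1425566_at was −0.03, −0.14 and −0.05 log2 in WT and 1.27, 1.36 and 1.50 in KO, so that this pair shifted apart by 1.45. For 1428227_at minus 1425565_at the WT values were 0.66, −0.38 and −0.19 and the KO values 0.55, 0.34 and 0.28, which overlapped. A single KO minus WT value for Rest is therefore not given. Where in the transcript each probe set binds was not analysed here.

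**Figure D1:**
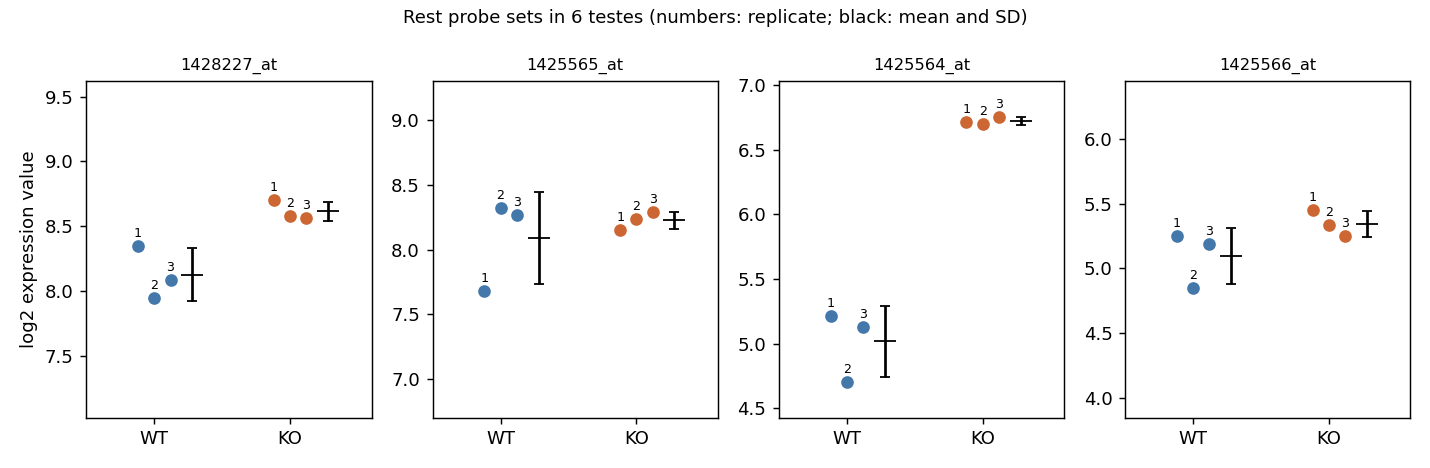
The log2 expression value of the 4 Rest probe sets in each WT and KO testis, with 1 panel per probe set and axes of equal length. Numbers mark the replicate and the black bars the mean and SD of 3 arrays. KO lies 1.70 above WT at 1425564_at and 0.49 above at 1428227_at, and the groups overlap at 1425565_at.

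Genes next to Rest on chromosome 5 (77265494 to 77286432 on GRCm38.p6) had smaller differences than Rest 1425564_at and 1428227_at. The 3 tested genes on each side had 9 probe sets, with differences from −0.23 to 0.08 log2 and 0 called (limma adjusted p). Spink2, which lies closest on one side, differed by 0.02, and Noa1, the closest on the other, by −0.05. A probe set of Hopx, which encodes a homeodomain protein without DNA binding, read lower in KO on all arrays, 8.44 ± 0.05 against 8.20 ± 0.07, without passing (−0.23, limma adjusted p = 0.863). How many of all probe sets read lower in KO on all arrays was not counted. These neighbours were picked by position after the values of Rest were seen.

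Among the corepressors no probe set passed the test. Of the 21 probe sets 18 were tested, and limma called 0 of 18 at an adjusted p under 0.05, against 0.0407% of all tested probe sets (11 of 27022). At an unadjusted p under 0.05 there were 2 of the 18, both of Rcor3, against 5.11% of all tested probe sets. The differences of the 18 had a median of 0.04 log2 against 0.01 for all tested probe sets, and their median size was 0.07 against 0.06. Without overlap between groups were 4 of the 21, all higher in KO. Over all 45037 probe sets 6.13% were higher in KO without overlap. At Rest it was 3 of the 4, but Rest was chosen for its differences, so its count is not set against this share. Since probe sets of 1 gene read the same RNA, these counts are not of independent measurements.

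Of the 7 corepressor genes Rcor3, a CoREST paralogue on chromosome 1, varied most among its probe sets. With 6 it also had the most of them, which by itself widens a range. At 1428343_at the values were 9.28, 9.54 and 9.46 in WT and 9.74, 10.09 and 9.75 in KO. KO replicate 2 was the highest, and all KO arrays lay above all WT arrays by at least 0.19. The difference was 0.43 ± 0.11 or 1.35-fold (limma adjusted p = 0.853).

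Probe set 1428342_at, annotated to the same clone sequence as 1428343_at (BB667699), read 11.16, 11.01 and 11.11 in WT and 11.33, 11.49 and 11.16 in KO. KO replicate 2 was again the highest, while KO replicate 3 was only 0.0031 above WT replicate 1, so that the groups only just separated. The difference was 0.24 ± 0.09 (limma adjusted p = 0.918), and 0.16 without KO replicate 2. At 1443922_at, which lay under the level filter, WT read 5.52, 5.54 and 5.55 and KO 5.67, 5.89 and 5.76, a difference of 0.24 with KO higher on every array.

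Other Rcor3 probe sets did not show this. At 1432232_at the values were 7.12, 8.18 and 7.57 in WT and 7.09, 6.74 and 7.47 in KO, a difference of −0.52 ± 0.27 with overlapping groups (limma adjusted p = 0.993). WT replicate 2 was the highest there and KO replicate 2, the highest array at 1428343_at, the lowest. The difference was −0.25 without the former and −0.34 without the latter. Probe set 1425352_at stood at −0.07 and 1444364_at, under the level filter, at 0.04. Rcor3 thus had differences from −0.52 to 0.43 over its 6 probe sets, 4 higher and 2 lower in KO. None of the 4 that were tested passed.

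Rcor1 encodes CoREST itself, the founding scaffold of the complex with LSD1. It lies on chromosome 12 like Alkbh1, 23.6 Mb away. Its 3 probe sets were all higher in KO, by 0.18, 0.05 and 0.04 log2. The first of these, 1454932_at, read 8.75, 8.53 and 8.58 in WT and 8.87, 8.74 and 8.78 in KO. WT replicate 1 lay above KO replicate 2, so the groups overlapped, and the difference of 0.18 ± 0.08 did not pass (limma adjusted p = 0.982). At 1437545_at the WT arrays spread from 9.31 to 9.90 and the KO arrays from 9.62 to 9.71, and the sign of the difference turned without WT replicate 1 (−0.11).

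Rcor2, the CoREST paralogue on chromosome 19, had 1 probe set, 1417302_at. It read 7.70, 7.74 and 7.64 in WT and 7.70, 7.79 and 7.71 in KO. The arrays interleaved, with a difference of 0.04 ± 0.07 (limma adjusted p = 0.994).

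Sin3a, the scaffold for the N-terminal part of REST, was higher in KO at all 3 probe sets by small amounts. At 1449343_s_at the values were 9.90, 9.75 and 9.80 in WT and 9.97, 9.96 and 9.92 in KO. The groups were separated by 0.03, and the difference of 0.14 ± 0.06 did not pass (limma adjusted p = 0.981). The others, 1419101_at and 1419102_at, differed by 0.09 and 0.04 with overlap, and WT replicate 1 was the highest of the 6 arrays at the former and within the KO range at the latter.

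The deacetylases stayed closest to 0. Hdac1 at 1448246_at read 11.93, 12.07 and 12.14 in WT and 12.03, 11.98 and 12.12 in KO, and the groups were interleaved. The difference was −0.0020 ± 0.07 (limma adjusted p = 0.999). Hdac2 differed by 0.02 at 1445684_s_at and by 0.01 at 1449080_at, with SE of 0.06 at each. Its remaining probe set, 1439704_at, lay under the level filter and spread in WT from 5.41 in replicate 1 to 6.34 in replicate 2, against 5.83 to 5.90 in KO.

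Phf21a, whose product reads histone tails in the CoREST complex, had 4 probe sets with differences of both signs. At 1418390_at WT read 9.88, 10.40 and 10.26 and KO 9.89, 10.00 and 10.00. WT replicate 1 was the lowest of all arrays, and the other WT arrays were above all KO arrays. The difference was −0.22 ± 0.12 (limma adjusted p = 0.993) and became −0.37 without WT replicate 1. Leaving out WT replicate 2 gave −0.11. The remaining probe sets stood at −0.07, 0.02 and 0.11, and 1441145_at, the last of these, spread from 6.60 to 7.26 within WT and stood at −0.05, 0.28 and 0.02 without WT replicate 1, WT replicate 2 and KO replicate 3.

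**Figure D2:**
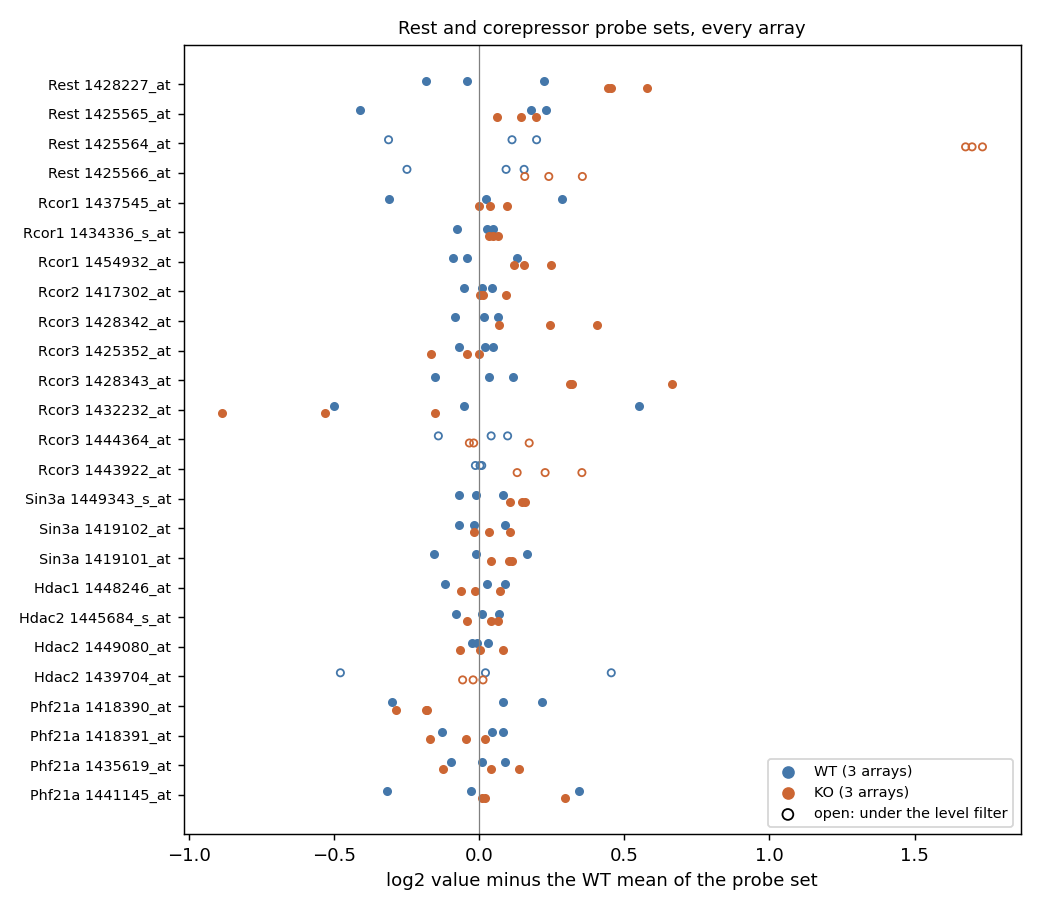
Every array's log2 value minus the WT mean of the same probe set, for the 25 probe sets of Rest and its 7 corepressor genes, in WT (blue) and KO (orange). Open circles mark the 5 probe sets under the level filter. The KO values of Rest 1425564_at lie apart from WT by a mean of 1.70, while the mean differences of the corepressors lie between −0.52 and 0.43.

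The rest of the machinery was followed by a list of 35 further subunits and partners, of which 30 were measured, each by its brightest probe set. Limma called 0 higher and 0 lower (against 0.0333% and 0.0074% of all tested probe sets), and 0 had an unadjusted p under 0.05. Of the 30 genes 19 were higher and 11 lower in KO, with a median of 0.012 log2 against 0.012 over all 13897 measured genes, of which 44.1% were lower. The differences ran from −0.10 for Smarce1, a subunit of the BAF chromatin remodeller, to 0.13 for Sap130, a subunit of the SIN3 complex (limma adjusted p = 0.993 for each). Kdm1a differed by 0.04 ± 0.12, Sin3b, the paralogue of Sin3a, by −0.04 ± 0.05 and Hmg20b, a DNA-binding CoREST subunit, by −0.06 ± 0.08. Zmym2, a zinc finger partner of LSD1, stood at −0.07, Smarcc2 of the BAF complex at 0.07, Suds3 of the SIN3 complex at 0.06 and the histone methyltransferase gene Ehmt2 at 0.04.

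Genes that act on REST itself also differed little at the brightest probe set of each. Some of their other tested probe sets differed more, such as Csnk1a1 1430529_at at 0.32 and Mbd1 1430837_a_at at −0.20, both with overlapping groups. Of 21 listed genes for its degradation, stability, splicing, transport and binding 18 were measured, with 12 higher and 6 lower in KO and a median of 0.038, where 44.1% of all measured genes were lower. Limma called 0 of 18 (0.0407% of all tested probe sets), and 0 had an unadjusted p under 0.05 (5.11% of all tested). Btrc, the ubiquitin ligase subunit that marks REST for degradation, differed by 0.09 ± 0.05, with KO arrays above WT arrays at that probe set (10.96 to 11.01 against 10.87 to 10.93, limma adjusted p = 0.993) but not at its 4 others, which stood between −0.03 and 0.09. Ctdspl, a small C-terminal domain phosphatase, stood at −0.14 ± 0.07 and Prickle1, a REST-interacting LIM protein, at −0.13 ± 0.06. At both probe sets all KO arrays lay below all WT arrays (limma adjusted p = 0.993 for each). The share of all probe sets lower in KO without overlap was not counted. At Ctdsp2 1423660_at, of the same list, all KO arrays lay above all WT arrays (0.13, limma adjusted p = 0.993). Another Prickle1 probe set, 1442172_at, lay under the level filter and stood at 0.03. Ctdsp1, a phosphatase related to Ctdspl, stood at 0.06, the deubiquitinase gene Usp15 at 0.09, Foxk2 at 0.08 and Dctn1, a dynactin subunit, at −0.09. Another tested probe set of Dctn1, 1422521_at, stood at 0.05. Srrm4, a neuronal splicing factor that acts on the Rest transcript, differed by 0.04 ± 0.08 at the probe set that was tested, and its other 2 were under the level filter at −0.05 and 0.03.

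Genes listed as RE1 targets, not all of them neuronal, had differences of both signs. Of 56 listed genes 49 were on the array and 28 passed the level filter. Limma called 1 higher and 0 lower (0.0333% and 0.0074% of all tested probe sets), and 4 of the 28 had an unadjusted p under 0.05, against 5.11% of all tested probe sets. Of the 28 genes 13 were higher and 15 lower in KO, with a median of −0.017. The gene called was Grin2b on chromosome 6, which encodes an NMDA receptor subunit. Whether its difference has to do with REST was not tested. Grin2b probe set 1422223_at read 8.96, 9.03 and 9.34 in WT and 10.23, 10.41 and 10.55 in KO. All KO arrays lay above all WT arrays. The difference was 1.29 ± 0.12 (limma adjusted p = 0.0181), a value known when the genes here were chosen. It lost its call without WT replicate 2 (limma adjusted p = 0.0676) or without KO replicate 1, 2 or 3 (0.0612, 0.128 and 0.0673), and the other 3 Grin2b probe sets, under the level filter, stood at −0.17, 0.22 and 0.16.

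Other genes of this list had smaller differences of either sign. Chga, which encodes the granin chromogranin A, had means of 8.10 in WT against 7.87 in KO and a difference of −0.24 ± 0.10 (limma adjusted p = 0.964). Tubb3, a neuronal beta-tubulin, stood at −0.22 ± 0.08 (limma adjusted p = 0.932). In the other direction were the sodium channel gene Scn2a at 0.19 ± 0.08, the potassium channel gene Kcnn4 at 0.19 ± 0.10 and the dynamin gene Dnm1 at 0.12 ± 0.06 (limma adjusted p from 0.961 to 0.993). Syn1, which encodes synapsin I of synaptic vesicles, stood at −0.10 ± 0.11. The 21 genes under the filter ran from −0.15 to 0.26, with 10 higher and 11 lower. Among them Stmn2, which encodes the growth cone protein SCG10, read 5.05 to 5.15 in WT and 4.97 to 5.22 in KO.

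**Figure D3:**
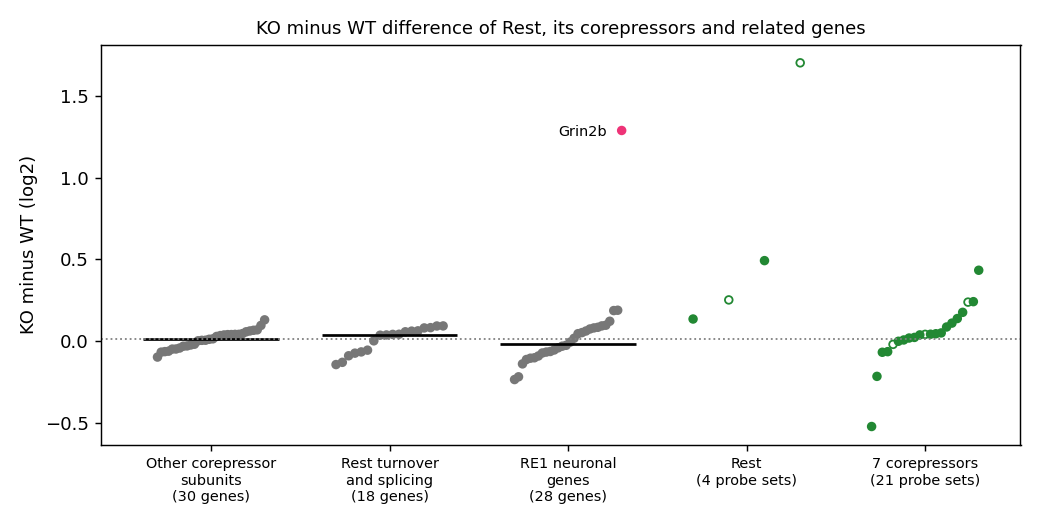
KO minus WT difference in log2 of genes in 3 lists (grey, with Grin2b as the gene called in pink), and of the Rest and corepressor probe sets (green, open where under the level filter). Black lines mark list medians of 0.012, 0.038 and −0.017, and the dotted line the median of all measured genes (0.012).

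To look at RE1 independently of a gene list, the RefSeq promoters of GRCm38.p6 (300 bases, from 250 before to 50 after the gene start) were searched on both strands for the conserved arms of the element, CAGCACC followed after 2 bases by GGACAG. Of 32851 promoters 12 held both (0.0365%), of 11 genes. The left arm alone was in 7.14% of promoters and the right arm in 22.2%. None of the 42 promoters found for the list of RE1 targets held the pair. Nor did any of the 8 found for Rcor1, Rcor2, Rcor3, Sin3a, Hdac2 and Phf21a. RE1 elements outside these windows were not searched. Promoters of Rest and Hdac1 were not analysed here. The matches of the 7 genes that could be tested are shown, with the arms in capitals. Whether REST binds at them was not tested.
Lhx3: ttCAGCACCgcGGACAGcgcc
Hrh3: ggCAGCACCacGGACAGcgcc
Sptbn4: tcCAGCACCacGGACAGttcc
Osbp2: ttCAGCACCgcGGACAGcggc
Ttc9b: atCAGCACCggGGACAGcgcg
Fbll1: gtCAGCACCagGGACAGctac
Lca5: ccCAGCACCcaGGACAGaccg
They lie at chr2:26208272-26208292 (minus strand), chr2:180104574-180104594 (plus), chr7:27396280-27396300 (plus), chr11:3774791-3774811 (plus), chr7:27653938-27653958 (minus), chr11:35799056-35799076 (plus) and chr9:83441288-83441308 (plus), in the order of the genes.

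None of these genes with a match to the RE1 arms at the promoter passed the test. Limma called 0 of their 10 tested probe sets (0.0407% of all tested), and 0 had an unadjusted p under 0.05 (5.11% of all tested). Their differences ran from −0.06 for Ttc9b to 0.12 for Hrh3, the histamine H3 receptor gene (limma adjusted p = 0.993 for each). Sptbn4, which encodes a spectrin of the axon initial segment, read 9.93 ± 0.14 in WT and 9.91 ± 0.18 in KO. The 2 probe sets of Osbp2, an oxysterol-binding protein gene, stood at 0.06 and 0.07, and those of Fbll1, a fibrillarin-like gene, at 0.09, with KO arrays above WT arrays, and −0.02. Lhx3, a homeodomain factor gene of pituitary and motor neurons, differed by −0.04 at the probe set tested.

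Markers of testis cell types were not called, and some lists differed slightly in level between the groups. Averaged after centring each gene on its mean over the 6 arrays, 18 Sertoli cell genes lay between 0.007 and 0.055 in WT and between −0.050 and −0.009 in KO, with 14 of 18 lower. For 16 spermatid genes the range was −0.056 to 0.020 in WT and 0.019 to 0.035 in KO, with 15 of 16 higher. Over all 13897 measured genes 44.1% were lower. Their centred mean was −0.031 in WT replicate 1 and −0.0007 to 0.012 in the other arrays. The part of any cell type list in the Rest difference was not tested. Of the 12 nerve and glia markers on the array 8 passed the level filter, 5 higher and 3 lower, with centred means of −0.054 to −0.017 in WT and −0.064 to 0.112 in KO, among them Map2 (9.41 in WT and 9.53 in KO), Tubb3 (8.44 and 8.22), Rbfox3 (6.94 and 7.07) and the glial genes Mbp (6.37 and 6.80, KO arrays above WT arrays, its other tested probe sets lower in KO) and Gfap (6.70 and 6.95). The neuronal genes Snap25 (3.18 and 3.23), Nefl (4.50 and 4.37), Nefm (4.40 and 4.38) and Stmn2 (5.09 and 5.06) lay under the filter. Medians of KO minus WT were −0.062 for Sertoli cells, 0.053 for spermatids, −0.026 for 7 Leydig cell genes, −0.014 for 12 spermatogonial genes, 0.025 for 16 spermatocyte genes, 0.044 for 8 macrophage and blood genes, 0.0030 for 8 genes of myoid cells and vessels, 0.10 for the 8 nerve and glia genes and 0.15 for 5 genes of fat and epididymis, and limma called 0 gene of these lists. Fat and epididymis markers were highest in KO replicate 2, at 0.999 against −0.544 to 0.109 in the other arrays. Without that array Rest 1425564_at differed by 1.72 and 1428227_at by 0.51.

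The probe sets whose pattern over the 6 arrays was closest to that of Rest 1428227_at were ranked by root mean square distance between centred log2 values, over 23403 tested probe sets with 1 gene. The nearest were those of Fam234b (distance 0.07, KO minus WT 0.37), Akap1, an anchoring protein gene of mitochondria (0.07, 0.43), Vav3, a guanine nucleotide exchange factor gene (0.08, 0.41), Fzd3, a Wnt receptor gene (0.08, 0.38), and 4930431P03Rik (0.09, 0.42). All 5 had KO arrays above WT arrays, which follows from their likeness to the Rest values. They lie on chromosomes 6, 11, 3, 14 and 14, and none on chromosome 5. Chromosome 6, that of Fam234b, also carries Grin2b.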

How the data were processed

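RNA of whole testes was labelled with biotin in 1 amplification cycle and hybridised to Affymetrix mouse arrays, per the labels' protocols. The authors deposited normalized log2 values for 45101 probe sets on 6 arrays. GCOS 1.4 is named in the submitters' processing notes, with background correction, probe summary and normalization not stated in the labels. That the deposited values are log2 was inferred from their range (2.61 to 15.00). No scanner files or detection calls were used, so signal over background is unknown, and the number of arrays limits the precision (median SE 0.08).

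Here 64 control probe sets were left out and the upper 60% by mean kept (27022). KO was compared with WT by limma 3.58.1 in R 4.3.3 (lmFit, eBayes with an intensity trend, two-sided, Benjamini-Hochberg over all kept probe sets, threshold 0.05), after tests on simulated data. Symbols were updated through gene identifiers with RefSeq names of GRCm38.p6 (99.4% of probe sets naming 1 gene matched), and promoter sequences are RefSeq's. Figures used matplotlib 3.10.9. The members, lists and tests were chosen with earlier results of these data known. Named from each list were genes called, the smallest p (up to 6, or 2 for cell types, which are given as lists here) and 9 set names. The 5 most like probe sets were those with the smallest distance. Alternatives covered normalization, level filter, moderation, array weights, replicate block, choice of probe set and left-out arrays.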

Additional observations from a re-analysis of the deposited data

How the results depend on the processing

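The differences of Rest 1425564_at and 1428227_at kept their sign under all 14 alternatives run for single probe sets (1.55 to 1.80 and 0.40 to 0.60). Alternatives of level filter, intensity trend, moderation and replicate block cannot move a difference of means here. Only normalization, left-out arrays and, for tested probe sets, array weights could change it. At Rest 1425564_at and 1428227_at all KO arrays lay above all WT arrays. Left-out arrays and weights could there change the size but not the sign, so the kept sign is no support for these differences. Of the 25 probe sets, 9 changed sign under at least 1 alternative, 8 of them corepressors, and the largest of these in the reported setting was 0.13 (Rest 1425565_at). The count of called probe sets among Rest and its corepressors, 0 as reported, was 1 without a filter on low values (1425564_at of Rest, the only setting that tested it) and 1 with gene by gene array weights (1428227_at of Rest). It was 0 under the other 12, left-out arrays included. Both calls are of Rest, which was chosen for these differences, so they are no evidence for them. The count over all probe sets, 11 as reported, was 7 in the upper 40% by mean, which tests fewer probe sets, 0 without moderation of variances (limma without eBayes, 1455 at an unadjusted p under 0.05), 46 with array weights and 2 without WT replicates 1 and 2 together. It ran from 2 to 12 when single arrays were left out, where dropping KO replicate 3 gave the 2, dropping WT replicate 3 gave 4 and dropping KO replicate 1 gave 6. The count of called genes in the 3 pathway lists, 1 as reported (Grin2b), was 0 without moderation, 0 without WT replicates 1 and 2 together and 0 to 1 with single arrays left out. The cause of these changes was not tested. Medians of the pathway lists changed sign among the alternatives (−0.017 to 0.020 for other subunits, −0.028 to 0.053 for genes acting on REST and −0.034 to 0.073 for RE1 genes), that of Sertoli genes stayed below 0 (−0.098 to −0.038), and that of spermatid genes, above 0 throughout, was 0.0086 with quantile normalization and 0.0063 without WT replicates 1 and 2. Replicate numbers were not taken to pair the samples, since the labels name no pairs. Deviations of same-numbered WT and KO arrays correlated at 0.22, −0.02 and 0.10. WT replicates 1 and 3 each correlated best with their own number, and WT replicate 2 with KO replicate 3 (0.25). With the replicate block 9 probe sets were called, 0 of them of Rest or a corepressor. The block lowered the SE at some probe sets (Rest 1428227_at, 0.11 to 0.08) and raised it at others (Rcor1 1434336_s_at, 0.06 to 0.07). Rcor3 1428343_at still did not pass with it (limma adjusted p = 0.330). For 3 against 3 arrays without scanner values, signal over background cannot be given, which limits the 5 probe sets under the level filter.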
